A study of Mus musculus with 6 samples.

Results

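The genes described here are those of the DNA replication pathway, the 34 of 56362 rows in the count tables whose pathway column of KEGG map numbers names DNA replication. They were measured by RNA-seq in the intestine of BALB/c mice, with 3 wild type mice (genotype label WT) and 3 FcεRIα knockout mice (genotype label FC), 1 library per mouse. FcεRIα is a subunit of an IgE receptor that is best known from mast cells and basophils. Sex, age and the way the knockout was made are not given in the labels used here, and every sample title holds the letters DSS, of unstated meaning. The series title names gut epithelial cells as the material, whereas the tissue is labelled intestine. Membership rests on the annotation and on no measured value, but the set was proposed with the genotype comparison of these libraries already known. Fold changes between genotypes are therefore given as a description, and nothing is read from their tests.

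DNA replication starts when the MCM helicase, a ring of related subunits loaded onto origins before S phase, is activated and unwinds the helix. RPA coats the exposed single strands, DNA polymerase alpha with its primase lays down short primers, and the RFC clamp loader places the sliding clamp PCNA on them so that polymerases delta and epsilon can extend. Primers are then removed by RNase H enzymes, Fen1 and Dna2, and DNA ligase 1 joins the fragments. In the gut these genes are used mainly by the dividing cells of the crypts, the pockets below the surface that hold stem cells and their fast-cycling progeny. Dividing lymphoid and stromal cells use them as well. Many of them are textbook targets of E2F, the transcription factor family that opens S phase.

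The letters of E2F sites were searched in promoter windows of 300 bases, 250 before and 50 after each start given by RefSeq on GRCm38.p6. The table held 34 windows for 28 of the 34 genes and none for Mcm4, Prim2, Pole, Rfc2, Rnaseh1 and Rnaseh2b. The forms TTTCCCGC, TTTGGCGC, TTTCGCGC and TTTGCCGC were searched on both strands, and forms on opposite strands can overlap. At least 1 of them stood in 12 of the 34 windows, or 35.3%, against 2.26% of all 32851 windows in the table and 3.55% of the 15030 windows of genes tested here. The 12 windows belonged to 11 genes, Mcm3, Mcm5, Mcm6, Mcm7, Pola1, Pold1, Pold3, Pole2, Pole4, Rfc3 and Lig1, and the fourth form was in none of them. The runs of 30 bases that follow are shown because they carry these letters in MCM, polymerase and clamp loader genes. Capitals mark every E2F form in the run, read on the strand of the gene.
Mcm3: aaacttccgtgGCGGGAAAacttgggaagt
Mcm5: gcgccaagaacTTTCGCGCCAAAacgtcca
Mcm6: gtatgctTTTGGCGCGAAAagtgcgtgcgg
Mcm7: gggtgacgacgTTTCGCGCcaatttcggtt
Pola1: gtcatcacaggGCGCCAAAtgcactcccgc
Pole2: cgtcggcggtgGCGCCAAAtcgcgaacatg
Pole4: ctctacccggcGCGGGAAAggggccgaaat
Rfc3: cTTTCGCGCtcGCGGGAAAactctactgtc

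These runs lie at chr1:20820275-20820304 for Mcm3, chr8:75109345-75109374 for Mcm5, chr1:128359793-128359822 for Mcm6 and chr5:138171849-138171878 for Mcm7. The others lie at chrX:93632275-93632304 for Pola1, chr12:69228162-69228191 for Pole2, chr6:82652890-82652919 for Pole4 and chr5:151651190-151651219 for Rfc3. All are on the minus strand except that of Mcm5. In Mcm5 and Mcm6 a form on each strand overlapped, which gives a capital run longer than 8 bases, and in Rfc3 a form on each strand stood side by side. Mcm6, with 3 matches in its window, held the most, and all of them lie before the start. The 250 bases before that start (chr1:128359706-128359955, minus strand, GRCm38.p6) are shown whole for this reason, with the E2F forms in capitals.
Mcm6: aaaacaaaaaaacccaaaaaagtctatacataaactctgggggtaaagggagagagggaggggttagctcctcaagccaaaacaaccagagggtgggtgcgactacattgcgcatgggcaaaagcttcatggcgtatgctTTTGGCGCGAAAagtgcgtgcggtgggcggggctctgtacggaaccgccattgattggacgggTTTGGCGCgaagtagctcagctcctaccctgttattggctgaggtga

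Another set of letters, TTTGAA, the CHR element of genes expressed in G2 and mitosis, was in 3 of the 34 replication windows, or 8.82%, those of Fen1, Mcm2 and Pold2. It was in 14 of the 20 windows found for a list of 24 G2/M genes, or 70.0%. The share was 17.9% of all windows and 12.7% of the windows of tested genes. For E2F the order of the lists was the other way round, with 1 of the 20 G2/M windows. CCAAT, the letters bound by NF-Y, was in 50% of the replication windows, 80% of the G2/M windows and 37.4% of all windows. GGGCGG, the GC box, was in 67.6%, 85% and 35.7%, and in 58.7% of the windows of tested genes. A match is a description of these letters in these windows.

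**Figure D1:**
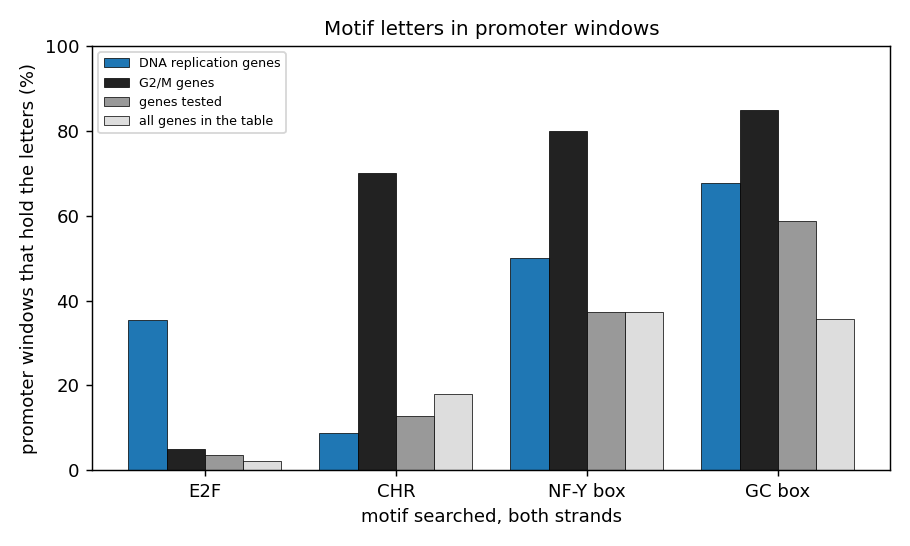
Share of promoter windows (300 bases each, %) that hold each set of letters on either strand, for the DNA replication genes (34 windows), the G2/M list (20 windows), the genes tested and all genes in the RefSeq table. E2F letters were in 35.3% of replication windows and 2.26% of all windows, and CHR letters in 70.0% of G2/M windows and 8.82% of replication windows.

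Depth ran from 19031833 to 23092382 estimated counts per library, and levels are given as CPM, counts per 1000000 counts of a library total scaled by TMM factors. The library labelled wild type 1 stood apart from its group, with a chi-square per degree of freedom of 247 and 237 against wild type 2 and 3, where the other pairs within a group had 33.8 to 65.6. Its TMM factor was 0.824, against 0.963 to 1.16 in the other 5 libraries. Fcer1a, the targeted gene, gave 0, 10 and 18 counts for the libraries labelled wild type 1, 2 and 3, against 1, 0 and 0 for knockout 1, 2 and 3. The count of 0 allows a level of up to 0.187 CPM (3 counts, counting error only), below the 0.413 and 0.815 CPM of wild type 2 and 3, so the targeted gene went against the label of that library, which is called the library labelled wild type 1 throughout. Its mast cell markers, 6 of 7 of which were tested, also had the lowest sum, 27.4 CPM against 44.8 and 52.3 CPM in wild type 2 and 3 and 29.7 to 39.9 CPM in the knockouts. The count of lower replication genes and their median are also given without it. Epithelial markers, 15 of 15 detected, summed to 14917 to 30531 CPM in the wild type mice, against 22818 to 27214 CPM in the knockouts, and none of them was at 0. The crypt stem cell transcripts Lgr5 and Ascl2 were nearly absent from knockout 2, while Sox9, another marker of the crypt list, was not. Lgr5, a stem cell receptor, gave 3, 10 and 8 counts for the wild type mice, against 9, 0 and 28 for the knockouts, and Ascl2, a stem cell transcription factor, had 24, 175 and 119 against 73, 3 and 147. Sox9, a transcription factor gene, had 796, 1187 and 1037 against 1201, 913 and 1793.

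All 34 replication genes passed the filter on low counts, and all 34 had lower fitted levels in knockout than in wild type intestine, where 55.8% of all 16732 genes tested were lower. Their median log2 fold change was -0.26, against -0.05 over all genes tested. The differences were small beside the spread within groups. Added over the 34 genes, the level was 1007, 1586 and 1319.8 CPM in the libraries labelled wild type 1, 2 and 3 and 1112, 697 and 1439.7 CPM in knockout 1, 2 and 3, or 1304 ± 290 and 1083 ± 372 CPM (SD, n = 3 per group). Knockout 3 was thus above 2 of the 3 wild type libraries, and knockout 2 was below all others. In bulk tissue, fewer dividing cells and less of these RNAs per cell cannot be told apart.

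The direction leaned on single libraries. Knockout 2 was the lowest of the 6 libraries in 30 of the 34 genes, while it was the lowest in 21.6% of all genes tested. Wild type 2 was the highest in 23 of the 34, against 24.04% of all genes tested. With every library kept, 34 of 34 genes were lower under each other setting, where the share of all genes that were lower was 58.5% with RLE factors, 62.6% with upper quartile factors, 63.5% with no scaling, 58.0% with no filter on low counts, 55.7% with a minimum count of 50, 58.4% by DESeq2, 51.9% by limma-voom and 52.0% with a replicate block. Without knockout 2, 25 of the 34 genes were lower, where 57.9% of all genes were, and the median was -0.07, equal to the -0.07 of all genes tested. Without wild type 2, 27 were lower, where 54.3% of all genes were, and the median was -0.12. Without the library labelled wild type 1 the count was 33, against 54.8% of all genes, and the median -0.42, and without knockout 3 it was 34, against 56.4%, and -0.53. Without wild type 3 the count was 32, against 55.0% of all genes, and without knockout 1 it was 34, against 60.4%. With knockout 2 left out, the medians by complex were -0.04 for MCM, -0.25 for polymerase alpha-primase, -0.25 for delta, -0.09 for epsilon, -0.0033 for RFC and PCNA, -0.12 for RPA and Ssbp1 and 0.011 for primer removal.

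edgeR's quasi-likelihood test, fitted on all genes, called 0 of the 34 at an adjusted p under 0.05, as it did 0 of all genes tested (0%), and 0 of the 34 had an unadjusted p under 0.05, where 6.84% of all genes did. DESeq2 called 0 of the 34, against 0.824% of the genes to which it gave an adjusted p, and had 1 at an unadjusted p under 0.05. limma-voom called 0 of the 34, against 0.0120% of all genes, and had 0 at such an unadjusted p. For DESeq2 and limma-voom the share of all genes at an unadjusted p under 0.05 was not counted. In 1 of the 34 genes all wild type libraries lay above all knockout libraries, where 4.27% of all genes parted in that direction and 13.0% in either. The range within the knockout group, highest over lowest library, was larger than the fitted fold change between groups in 33 of 34 genes, and that within wild type in 30. Such a range readily exceeds a fold change between group means. The share over all genes was not counted, so nothing particular to the 34 is read from these counts.

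**Figure D2:**
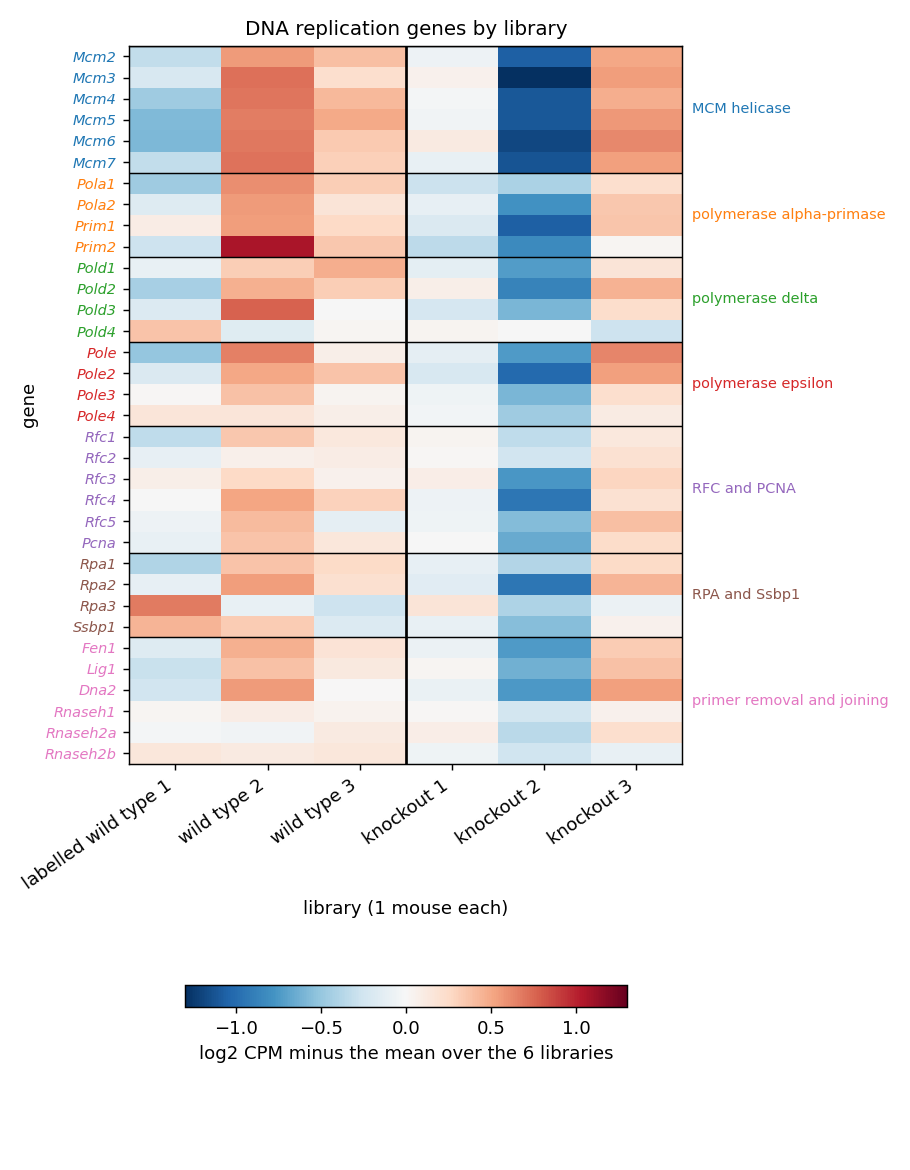
Level of each of the 34 DNA replication genes (rows, grouped by complex) in each library (columns), as log2 CPM minus the gene's mean over the 6 libraries (red high, blue low). Knockout 2 is the lowest library in 30 genes and wild type 2 the highest in 23. Pold4, Pole4, Rpa3, Ssbp1 and Rnaseh2b are highest in the library labelled wild type 1.

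The 6 MCM genes, which encode the ring of the replicative helicase, varied most between mice. Their summed level was 255, 541 and 437 CPM in the wild type mice, against 336, 153 and 494 CPM in the knockouts, or 411 ± 145 and 328 ± 170 CPM (SD, n = 3). The groups overlapped, with the library labelled wild type 1 below knockout 1 and 3. Mcm7 and Mcm5 were the highest of the 6 in level per length, both at a mean of 22.5 CPM per kb over the 6 libraries. Mcm7 was at 49.1, 101 and 76.0 CPM in the wild type mice, against 57.3, 28.1 and 89.3 CPM in the knockouts. Its log2 fold change was -0.37 (SE 0.44). Mcm4 had the lowest fold change of the 6, with 34.0, 76.2 and 62.9 CPM against 45.9, 21.8 and 65.0 CPM, or -0.38 (SE 0.45). Mcm6 had the highest, with 36.4, 88.0 and 69.3 CPM against 59.4, 23.99 and 84.0 CPM, or -0.21 (SE 0.50). In all 6 genes knockout 2 was lowest and wild type 2 highest. Within the knockout group the highest library exceeded the lowest 2.95 to 3.64-fold, and within wild type 1.84 to 2.42-fold. The fitted fold changes of the 6 lay between -0.38 and -0.21. Mcm7 overlaps Cops6 and Ap4m1, so that its reads are less certain than those of the other 5.

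Polymerase alpha-primase, which starts each new strand with an RNA-DNA primer, held the gene of largest difference. Prim2, the large primase subunit, was at 15.9, 39.9 and 24.4 CPM in the wild type mice, against 15.1, 10.8 and 19.5 CPM in the knockouts, a log2 fold change of -0.82 (SE 0.38). The fold change was -0.42 without wild type 2 and -1.12 without the library labelled wild type 1. Wild type 2 was high and knockout 3 lay above the library labelled wild type 1, so the groups overlapped. Pola2, the accessory subunit, was at 20.5, 33.6 and 25.8 CPM against 21.3, 13.3 and 29.3 CPM, or -0.32 (SE 0.33). Prim1, the catalytic primase subunit, and Pola1, the polymerase itself, were at -0.50 (SE 0.38) and -0.35 (SE 0.34). The summed level of the 4 genes was 81.6 ± 25.6 CPM in the wild type mice, against 57.4 ± 19.5 CPM in the knockouts (SD, n = 3).

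The subunits of polymerase delta, which extends the lagging strand, did not run together. Pold1, the catalytic subunit, was at 26.8, 35.6 and 39.6 CPM in the wild type mice, against 26.2, 17.3 and 32.1 CPM in the knockouts, a log2 fold change of -0.43 (SE 0.27). Pold4, the smallest subunit, was at 32.2, 22.3 and 25.2 CPM against 25.5, 24.7 and 20.6 CPM, or -0.17 (SE 0.20). Here the library labelled wild type 1 was highest and knockout 3 lowest, unlike in the catalytic subunit, where wild type 3 was highest and knockout 2 lowest. Pold2 and Pold3, regulatory subunits, were at -0.18 (SE 0.38) and -0.41 (SE 0.32) and both highest in wild type 2.

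Polymerase epsilon, which extends the leading strand, also held steady and variable subunits. Pole2, which supports the catalytic subunit, was at 6.73, 10.9 and 9.96 CPM in the wild type mice, against 6.67, 3.83 and 11.1 CPM in the knockouts, a log2 fold change of -0.35 (SE 0.43). Pole, the catalytic subunit, was at 6.92, 15.4 and 10.3 CPM against 9.03, 5.88 and 15.2 CPM, or -0.12 (SE 0.45). Pole4, a small histone-fold subunit, was at 37.7, 37.6 and 35.6 CPM in the wild type mice, against 33.1, 24.6 and 36.5 CPM in the knockouts, or -0.23 (SE 0.18). Knockout 2 was lowest in all 3, and knockout 3 lay within or above the wild type range. Pole3, the partner of Pole4, was at -0.26 (SE 0.24). The smallest count of any replication gene was the 82 of Pole2 in knockout 2, a rounded estimate, with an exact 95% Poisson interval of 65.2 to 102 counts. Counting error was thus small beside the spread between mice. The interval leaves out error in assigning reads, and Pole2 had fractional estimated counts in all 6 libraries.

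**Figure D3:**
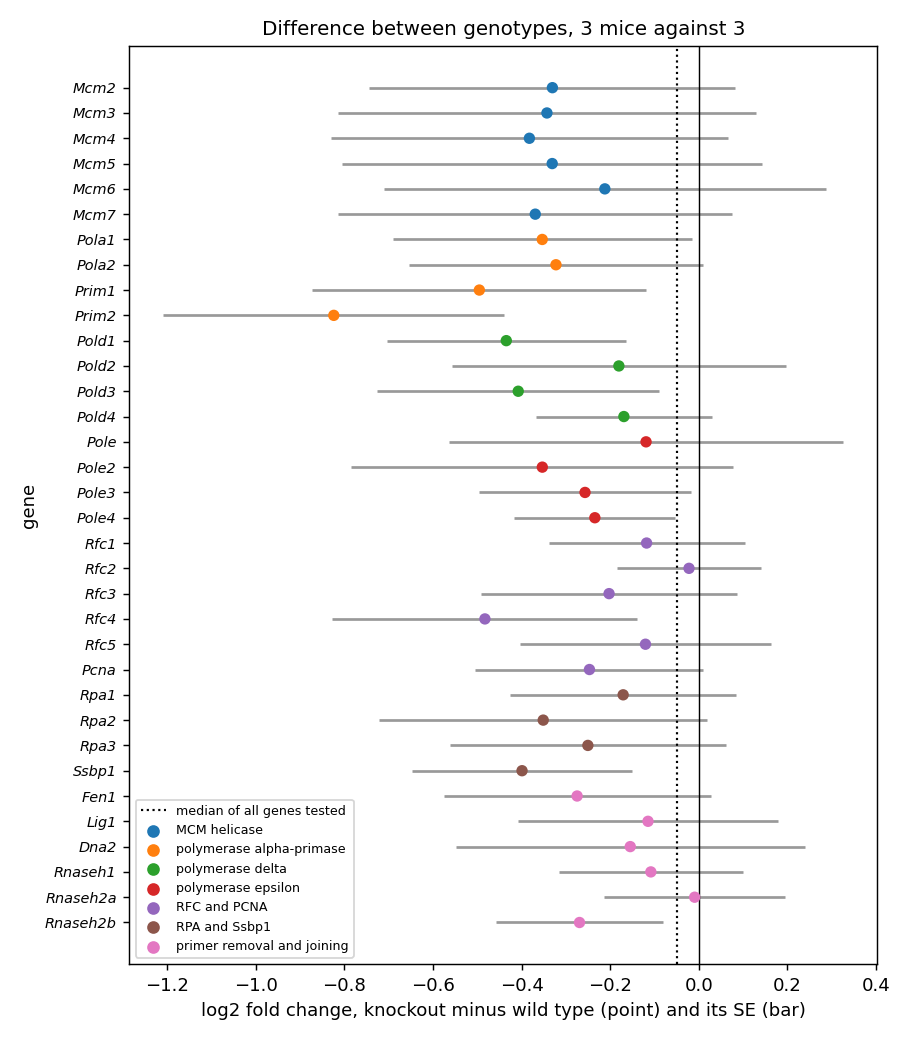
Fitted log2 fold change of each gene, knockout minus wild type, with its SE as a bar (3 mice against 3, edgeR), coloured by complex. All 34 points lie below 0, from -0.82 for Prim2 to -0.0093 for Rnaseh2a, and the dotted line marks the median of all genes tested at -0.05.

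In PCNA and the clamp loader the fitted log2 fold changes ran from -0.48 to -0.02. Pcna, the sliding clamp and the gene of highest level, was at 112, 155 and 133 CPM in the wild type mice, against 120.2, 76.2 and 142 CPM in the knockouts, a log2 fold change of -0.25 (SE 0.26). Rfc4 had the lowest fold change among the loader subunits, with 9.17, 13.1 and 11.3 CPM against 8.75, 4.81 and 10.5 CPM, or -0.48 (SE 0.34). Rfc2 had the highest, with 38.2, 42.9 and 43.8 CPM against 41.4, 34.6 and 47.0 CPM, or -0.02 (SE 0.16). Rfc1, the large subunit, Rfc3 and Rfc5 lay between, at -0.12 (SE 0.22), -0.20 (SE 0.29) and -0.12 (SE 0.28). The groups overlapped in all 6 genes. Rfc2, Rfc4 and Rfc5 had fractional estimated counts in 5 or 6 libraries, which leaves their levels less certain, and each overlaps another named gene, Lat2, Eif4a2 and Wsb2.

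The single-strand binding proteins divided in their order of libraries. Rpa1, the large DNA-binding subunit of RPA, was at 45.7, 77.5 and 71.4 CPM in the wild type mice, against 55.7, 46.1 and 71.2 CPM in the knockouts, a log2 fold change of -0.17 (SE 0.25). Rpa3, the small subunit, was instead highest in the library labelled wild type 1, with 25.8, 15.1 and 13.3 CPM against 18.1, 12.2 and 15.2 CPM, or -0.25 (SE 0.31), and without the library labelled wild type 1 its fold change was 0.06. Ssbp1, which binds single strands in mitochondria and not at nuclear forks, was highest in that library too. It was at 28.2, 26.2 and 18.5 CPM against 19.5, 14.2 and 21.6 CPM, or -0.40 (SE 0.25). Rpa2, the middle subunit of RPA, was at -0.35 (SE 0.37).

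The genes of primer removal and joining held the steadiest levels and the 1 gene whose groups parted. Rnaseh2b, a structural subunit of RNase H2, was at 13.7, 13.4 and 13.6 CPM in the wild type mice, against 11.9, 10.3 and 11.6 CPM in the knockouts, a log2 fold change of -0.27 (SE 0.19). All wild type libraries lay above all knockout libraries, with 13.6 ± 0.153 and 11.2 ± 0.822 CPM (SD, n = 3). Its partner Rnaseh2a, the catalytic subunit, was at 19.8, 19.4 and 21.7 CPM against 21.3, 15.7 and 23.4 CPM, or -0.0093 (SE 0.20). Rnaseh2c, the remaining subunit, is not annotated with the pathway in the tables and so is no member. Its fold change was -0.47 (SE 0.26). Fen1, the flap endonuclease, was at 31.7, 49.1 and 40.4 CPM against 33.9, 21.4 and 44.9 CPM, or -0.27 (SE 0.30). Lig1, the ligase, Dna2, a nuclease and helicase, and Rnaseh1, another RNase H, were at -0.11 (SE 0.29), -0.15 (SE 0.39) and -0.11 (SE 0.21). Fen1 overlaps Tmem258 and Rnaseh2a overlaps Prdx2. They had fractional estimated counts in 6 and 4 libraries, which leaves their levels less certain. Lig1 and Rnaseh2b overlap Zswim9 and Dleu7, with fractional counts in 1 and 0 libraries.

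Variation between mice thus differed widely among genes of 1 pathway. The highest library exceeded the lowest by 1.26-fold in Rnaseh1 and 4.11-fold in Mcm3, with a median of 2.29-fold over the 34 genes. The range was over 3-fold in 8 genes, the 6 MCM genes, Prim1 and Prim2, and under 2-fold in 11. The shares of all genes with such ranges were not counted, so these counts only describe the 34. By complex the median range was 3.53-fold for MCM, 2.79 for polymerase alpha-primase, 2.39 for delta, 2.30 for epsilon, 2.05 for RPA and Ssbp1, 2.001 for RFC and PCNA and 1.75 for primer removal. The 11 genes with E2F letters in a window had a median range of 2.55-fold (1.53 to 4.11) and the 17 with a window but no such letters 2.11-fold (1.49 to 3.07), so the ranges overlapped widely. Over the 6 libraries, 24 of 34 genes had a Pearson correlation over 0.9 with the mean of the 34. Each gene is part of that mean, and the share of all genes with such a correlation was not counted. The count is therefore a description, and nothing particular to the 34 is read from it. Pold4 (-0.43) and Rpa3 (0.09) ran apart from that mean, followed by Ssbp1 and Rnaseh2b at 0.64 each.

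Levels per length, as CPM per kb of the gene length in the tables, put the subunits on 1 scale. Pcna was highest, with 88.1 ± 14.1 CPM per kb in wild type and 74.2 ± 22.0 in knockout (SD, n = 3). Pole4 was next, with 57.0 ± 1.84 and 48.4 ± 9.43 CPM per kb. The 6 MCM genes, whose products sit once each in a ring, were close together, with means over the 6 libraries of 14.2 to 22.5 CPM per kb. As a ratio, polymerase epsilon spread widest of the complexes, from 1.46 CPM per kb for Pole to 52.7 for Pole4. The catalytic subunits Pole and Pola1 and the nuclease Dna2 were the 3 lowest genes, with 1.52 ± 0.599, 2.56 ± 0.884 and 2.40 ± 0.704 CPM per kb in wild type. Pola1 and Dna2 did not differ beyond their SDs.

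**Figure D4:**
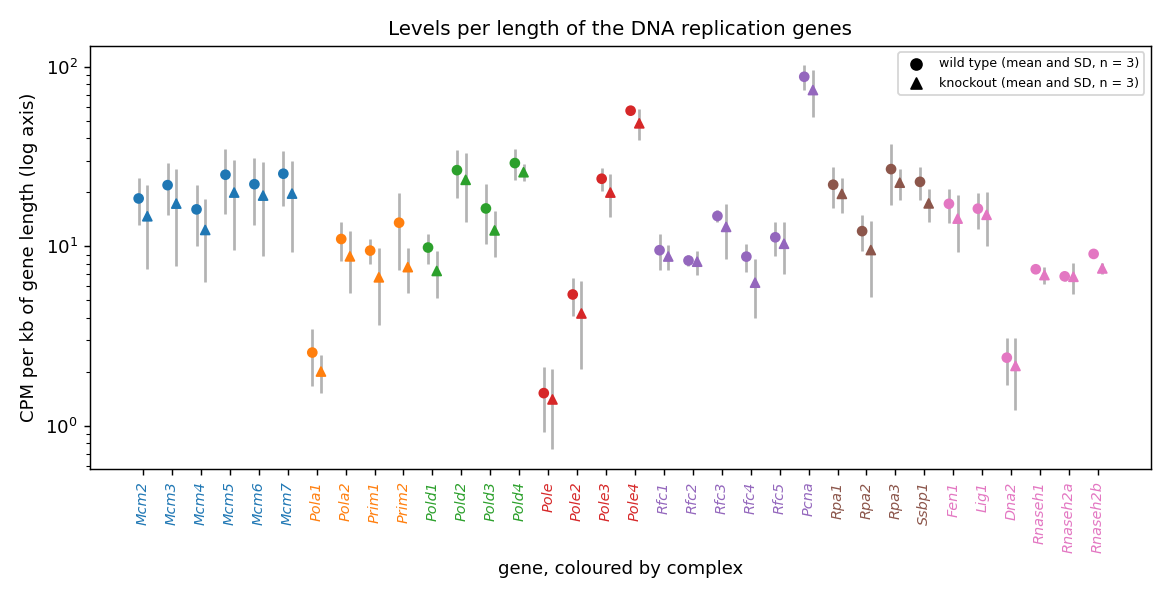
Level of each gene per kb of gene length (log axis), as the mean and SD of 3 wild type mice (circles) and 3 knockout mice (triangles), coloured by complex. Pcna and Pole4 are highest, Pole, Pola1 and Dna2 lowest, and the MCM genes lie close together.

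Other genes of replication were taken from lists that hold no member of the pathway. All 10 genes of origin licensing were lower in knockout (median -0.23), with Orc5, an origin recognition subunit, at -0.33 (SE 0.21) and Orc1 at -0.68 (SE 0.61). All 14 genes of origin firing and of the partners of the helicase were lower (median -0.35), with the kinase gene Cdc7 at -0.46 (SE 0.32) and Mtbp, an origin firing factor, at -0.43 (SE 0.41). In fork protection and alternative clamp loading 9 of 10 were lower (median -0.27), with Tipin at -0.51 (SE 0.40) and Dscc1 at -0.76 (SE 0.62). All 8 genes of chromatin assembly behind the fork were lower (median -0.37), with the histone chaperone genes Nasp at -0.50 (SE 0.35) and Asf1a at -0.27 (SE 0.23). Over all genes tested, 55.8% were lower. In these 4 lists, edgeR's test called 0 genes, 0 had an unadjusted p under 0.05 and 0 parted the groups. The shares over all genes were 0%, 6.84% and, in either direction, 13.0%. Knockout 2 had the lowest mean of the 6 libraries in each list and wild type 2 the highest, as in the replication genes.

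Deoxynucleotide supply and the control of S phase entry held genes of the other direction. Of 11 supply genes 9 were lower (median -0.32). Samhd1, which breaks down deoxynucleotides and is also known as an interferon-inducible antiviral gene, was at 207, 77.9 and 118 CPM in the wild type mice, against 458, 463 and 223 CPM in the knockouts. Its lowest knockout library exceeded its highest wild type library, with a log2 fold change of 1.51 (SE 0.44), which edgeR's test over all genes did not call (adjusted p = 0.684). Of 14 genes of E2F and G1/S control 7 were lower and 7 higher (median -0.01). Cdkn1a, the cell cycle inhibitor p21, was at 208, 132 and 123 CPM in the wild type mice, against 277, 196 and 197 CPM in the knockouts, or 0.54 (SE 0.26), with the library labelled wild type 1 above knockout 2 and 3. Rbl1, a pocket protein that binds E2F, was at 36.7, 32.6 and 33.5 CPM against 40.9, 40.6 and 39.4 CPM, or 0.24 (SE 0.13), and its groups did not overlap.

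G2/M genes shared the direction of the replication genes, with 24 of 24 lower and a median of -0.49. Their mean by library, as log2 CPM centred over the libraries, came to -0.17, 0.70 and 0.27 for wild type against -0.31, -0.73 and 0.24 for knockout mice. The replication genes were at -0.13, 0.43 and 0.17 against -0.06, -0.69 and 0.29. Knockout 3 was above the library labelled wild type 1 in both lists. The G2/M median was -0.35 with 24 lower without knockout 2, -0.27 with 23 lower without wild type 2, -0.75 with 24 lower without the library labelled wild type 1 and -0.80 with 24 lower without knockout 3. That of the replication genes was -0.07, -0.12, -0.42 and -0.53. Whether the lists differ was not tested. Of the G2/M genes, Nusap1, a spindle protein gene, was at -0.50 (SE 0.20) with its groups apart, and Cenpf, a kinetochore protein gene, at -0.88 (SE 0.37), and edgeR's test called 0 of the 24 over all genes, with 2 of 24 at an unadjusted p under 0.05, near the 6.84% of all genes.

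Most markers of crypt cells were low in knockout 2, as the replication genes were. The summed level of the 7 crypt stem and transit-amplifying markers was 94.7 to 162 CPM in the wild type mice, against 59.7 to 188 CPM in the knockouts, and knockout 2 was the lowest. Of the 7, 5 were tested, and 4 of these were lower in knockout. Lgr5 and Olfm4 failed the filter, and both had 0 counts in knockout 2, which allows up to 0.140 CPM. Cdca7, a gene of cycling crypt cells, was at 32.7, 55.8 and 47.7 CPM in the wild type mice, against 51.6, 12.6 and 60.1 CPM in the knockouts. Axin2, a target of Wnt signalling, was at 8.85, 18.2 and 18.1 CPM against 17.4, 3.22 and 24.3 CPM. Both were lowest in knockout 2 and second lowest in the library labelled wild type 1, as the MCM genes were. Sox9 was lowest in knockout 2 too but nearly flat among the wild type mice, with 49.6, 49.0 and 47.0 CPM against 56.8, 42.6 and 78.2 CPM, or 0.29 (SE 0.23). Smoc2, a stem cell marker, was at 1.497, 31.1 and 15.9 CPM against 8.13, 1.07 and 17.0 CPM, so that the library labelled wild type 1 was nearly as low as knockout 2. Epithelial markers went the other way from the replication genes, with 14 of 15 higher in knockout (median 0.36) and sums of 30531, 16258 and 14917 CPM against 27214, 26444 and 22818 CPM. The B cell markers, 8 of 8 tested, had another order, with 252, 52.2 and 283 CPM in the wild type mice, against 178, 132 and 75.7 CPM in the knockouts. Fibroblast and endothelial markers, 9 of 9 lower in knockout in each list (medians -0.60 and -0.94), had their lowest means in the library labelled wild type 1 and knockout 1 and so another order as well. Squamous epithelial markers had the order of the replication genes at its ends, with wild type 2 highest and knockout 2 lowest. Of these 7, 4 were tested and all 4 were lower (median -1.92), with 2 at an unadjusted p under 0.05 and sums of 60.8, 74.4 and 31.2 CPM against 23.98, 12.5 and 31.8 CPM. Neutrophil markers were lower in 7 of 7 (median -1.26), with 2 at an unadjusted p under 0.05. Over all genes tested, 6.84% had such a p. Their mean log2 level was highest in wild type 2. The summed level of the neutrophil markers was instead highest in the library labelled wild type 1, at 1298 CPM against 941 CPM in wild type 2. The part of crypt, squamous, lymphoid, myeloid and stromal cells in the differences of the replication genes was not tested. In a wider list of stem cell and Wnt target genes, 14 of 16 were tested and 9 of these were lower (median -0.06). Its gene of smallest p, Rnf43, which restrains Wnt receptors, was at 28.2, 20.8 and 23.5 CPM in the wild type mice, against 34.8, 34.0 and 36.2 CPM in the knockouts, or 0.53 (SE 0.17), with its groups apart and not called over all genes by edgeR.

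**Figure D5:**
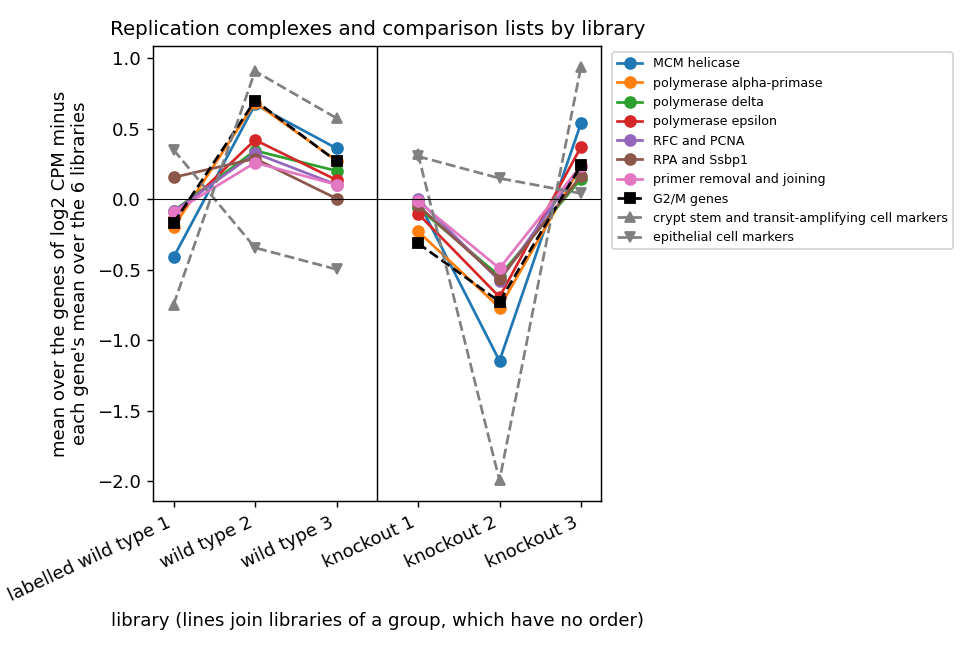
Mean over the genes of each complex of log2 CPM minus the gene's mean over the 6 libraries, by library, with the G2/M list (black squares) and markers of crypt and epithelial cells (grey triangles). The MCM mean runs from -1.15 in knockout 2 to 0.67 in wild type 2, and the crypt markers are at -1.99 in knockout 2.

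Many replication genes serve repair as well. In the same annotation 18 of the 34 belong to nucleotide excision repair, 15 to mismatch repair, 11 to base excision repair and 8 to homologous recombination, while 7, the 6 MCM genes and Pcna, belong to the cell cycle pathway. The 34 genes lie on 14 chromosomes, with 6 on chromosome 5 (Mcm7, Pole, Rfc1, Rfc2, Rfc3 and Rfc5). On GENCODE vM21 coordinates (GRCm38), Prim2 spans 33453810 to 33669795 of chromosome 1 and Rnaseh2b 62292589 to 62372992 of chromosome 14.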

How the data were processed

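The deposited tables hold 1 estimated count per gene and library, since 12.4% to 14.8% of values were fractional, and a gene length column that was used for levels per kb. Per the submitters' processing notes, TopHat2 2.0.0 was used with the build mm10. Which program and gene models made the counts, and whether strand was used, is not given in the sources used here. Overlapping genes may therefore share reads, and 18 of the 34 members had a fractional count in at least 1 library. Pola2, Pole2, Rfc2, Rfc5 and Fen1 had a fractional count in all 6.

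Counts were rounded. Genotypes were compared in R 4.3.3 by the quasi-likelihood test of edgeR 4.0.16, with TMM factors, over the 16732 genes that passed filterByExpr at a minimum count of 10, adjusted by Benjamini-Hochberg over all of them, threshold 0.05. Each SE is the absolute log2 fold change over the root of the F statistic. Alternatives were DESeq2 1.42.0, limma-voom (limma 3.58.1), other scalings and filters, the replicate number as a block, and fits without each library in turn. The steps were tested on simulated data. Members, lists and rules were chosen with earlier results of these data known. Values by library were given for the members of highest level per length and of lowest and highest fold change in each complex, for those whose groups parted, and for up to 2 genes of smallest p per list. The values of 1 gene under that rule are not reported here. Genes named for their range or their motifs, Samhd1's and the crypt markers' values by library, and the 250 bases of Mcm6 were chosen after the values were seen. Coordinates came from GENCODE vM21, which held 52081 of the 56362 identifiers, and promoters from RefSeq (GRCm38.p6).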

Additional observations from a re-analysis of the deposited data

How the results depend on the processing

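No replication gene was called under any of the alternatives run. Over all genes edgeR called 0, and 3 were called with no filter on low counts, 127 by DESeq2 and 2 by limma-voom. With every library kept, the 272 fold changes of members under the 8 other scalings, filters, tools and the block kept their direction. Leaving out 1 library turned the direction of 11 members, whose fold changes then ran from -0.54 to 0.22 for Pole, -0.45 to 0.060 for Rpa3, -0.48 to 0.076 for Pold2, -0.13 to 0.053 for Rfc2, -0.63 to 0.12 for Mcm6, -0.32 to 0.037 for Rfc1, -0.38 to 0.067 for Rfc5, -0.41 to 0.017 for Rfc3, -0.52 to 0.11 for Dna2, -0.13 to 0.11 for Rnaseh2a and -0.36 to 0.082 for Lig1. The median of the 34 genes ran from -0.53 to -0.07 and the count of lower genes from 25 to 34. With the replicate number as a block, edgeR called 0 genes, and the median of the 34 was -0.28 with 34 lower. Deviations of same-numbered libraries correlated at 0.42, -0.13 and 0.0055, and those of differently numbered libraries at -0.48 to 0.39. Whether the numbers pair the libraries cannot be told from these values. The deposited table of wild type 3 carries a code in its name that starts with other letters than those of the other 5 libraries, and its meaning is not stated. Without that library the median was -0.26. The MCM genes varied 2.95 to 3.64-fold within the knockout group and 1.84 to 2.42-fold within wild type. With 3 mice per group, differences of the size seen here were not resolved.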

Other observations

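Genes outside the pathway followed the replication genes across the 6 libraries. Among the genes at a mean of 5 CPM or more, the 5 of highest Pearson correlation with the mean of the 34 were Polr1e (0.999), Gart (0.998), Lmnb1 (0.998), Nup85 (0.998) and Polr1f (0.9975). Polr1e and Polr1f encode subunits of RNA polymerase I, which makes ribosomal RNA, Gart an enzyme of purine synthesis, Lmnb1 lamin B1 of the nuclear envelope, and Nup85 a nuclear pore protein. Gart was at 48.0, 80.1 and 64.2 CPM in the wild type mice, against 50.03, 28.5 and 74.2 CPM in the knockouts, and Lmnb1 at 81.5, 137 and 105 CPM against 81.8, 47.7 and 119.7 CPM. They were picked for the likeness among 11847 genes over 6 libraries, so the correlations are a description.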
